A study of Mus musculus with 9 samples.

Results

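Antigen presentation shows fragments of proteins to T cells on molecules encoded by the major histocompatibility complex (MHC). The genes followed here were 10 of this machinery, chosen by symbol: the class II chains H2-Aa, H2-Ab1 and H2-Eb1 with their chaperone Cd74, the class I heavy chains H2-K1 and H2-D1 with their light chain B2m, the peptide transporter subunit Tap1, and the immunoproteasome subunits Psmb8 and Psmb9. The choice was made with earlier results of these data known. Symbols were matched to 9 of the 10 among 37668 genes in the deposited table. Psmb9 was not matched under its symbol and was not analysed here, although it may be listed under an identifier without a symbol, as described with the locus of Tap1. All 9 reached 1 FPKM (a fragment count per transcript length and sequencing yield) in at least 1 group, as did 14225 genes in all.

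The samples were aortas of 9 male mice aged 90 days on the strain background 129T2SvEmsJ:C57Blk/6J, 3 in each of 3 groups. Every group carried a floxed allele of the angiotensin II type 1a receptor gene, labelled AT1ar floxed. The floxed group had no Cre transgene, the Cdh5Cre group carried Cdh5-Cre and the Sm22Cre group carried Sm22-Cre, so that the comparisons addressed loss of the receptor from endothelial or from smooth muscle cells. The Cdh5 promoter is active in endothelium, and in the embryo also in the endothelium that gives rise to blood cells. The Sm22 promoter is active in smooth muscle and, in the embryo, in heart muscle. The series title names Marfan syndrome, but the sample labels give no fibrillin allele. The files give 1 FPKM value per gene and group, so the spread between mice and the depth of the libraries are unknown, no test was possible, and no difference below has a replicate check. Where 3 values are given together, they are those of floxed, Cdh5Cre and Sm22Cre, in that order. The targeted gene, Agtr1a (ENSMUSG00000049115), was low throughout, at 1.75, 1.32 and 1.21 FPKM. The 6 smooth muscle markers summed to 6832, 7197 and 6748 FPKM.

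Class I molecules are made by nearly all nucleated cells and carry peptides cut by the proteasome in the cytosol and pumped into the endoplasmic reticulum by the transporter Tap1-Tap2. Class II molecules are made mainly by dendritic cells, macrophages and B cells, and carry peptides from taken-up proteins. Interferon-gamma raises both sets, and under it the proteasome exchanges its catalytic subunits Psmb6, Psmb5 and Psmb7 for Psmb9, Psmb8 and Psmb10. In mice of the H2b haplotype, C57BL/6 among them, the gene for the E alpha chain, which would pair with the product of H2-Eb1, lacks its promoter.

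Stretches upstream of 4 of these genes are shown because class I and class II promoters share a small module of elements. Whether these elements have a part in the differences between groups was not tested. They come from RefSeq on GRCm38.p6 and run 5′ to 3′ on the gene's strand from 140 to 11 bases before the annotated start. Capitals mark ATTGG (the CCAAT or Y box bound by NF-Y), TGACG (the core of sites for CREB family factors, as in the X2 box) and AANNGAAA (the core read by interferon regulatory factors), each on either strand.
H2-Aa, chr17:34287834-34287963, minus strand: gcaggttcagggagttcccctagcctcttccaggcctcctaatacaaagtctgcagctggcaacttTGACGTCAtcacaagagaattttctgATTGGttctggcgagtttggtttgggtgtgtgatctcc
H2-Eb1, chr17:34305727-34305856, plus strand: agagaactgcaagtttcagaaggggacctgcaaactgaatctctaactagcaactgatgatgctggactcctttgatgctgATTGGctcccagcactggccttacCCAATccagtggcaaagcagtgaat
H2-K1, chr17:34000358-34000487, minus strand: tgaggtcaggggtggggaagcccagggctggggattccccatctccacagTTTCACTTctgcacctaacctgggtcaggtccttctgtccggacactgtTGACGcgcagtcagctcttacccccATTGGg
B2m, chr2:122147547-122147676, plus strand: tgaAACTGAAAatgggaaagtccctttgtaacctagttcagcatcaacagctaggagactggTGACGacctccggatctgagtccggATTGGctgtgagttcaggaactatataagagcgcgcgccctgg

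The motifs were counted in the 200 bases before the start of 8 of the 10 listed genes. H2-Ab1 had no entry, and Cd74, on chromosome 18, was left out of the count. The windows of H2-D1, Psmb8 and Psmb9 lay within annotated exons of the same genes, and that of Tap1 within an exon of Psmb9. Exons also overlapped the windows of H2-Eb1 (antisense) and B2m (at its last base). The counts include all these windows. ATTGG was found in 6 of the 8 and in 30.1% of 27025 promoters. TGACG was found in 6 of the 8 and in 15.8% of promoters. The windows of Tap1 and Psmb9, which lie head to head, overlap, and their TGACG is the same site read on opposite strands, so it was counted for both. AANNGAAA was present in H2-K1, H2-D1 and B2m, 3 of the 8, and in 17.2% of promoters. In H2-Aa the TGACG matches on the 2 strands overlap. The first base of a TGACG lay 25 bases before the first base of an ATTGG in H2-K1, H2-D1 and B2m, and 26 bases before it in H2-Aa. The stretches of H2-K1 and H2-D1 were 91.4% identical over the 140 bases that aligned, so their matches are not independent. The motifs were chosen because such promoters share them, so these counts do not test enrichment. A match describes letters in a window and does not show that a factor binds there.

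The class II genes stood at moderate levels in the floxed aorta and were all higher in Cdh5Cre. H2-Aa, the alpha chain of the A molecule (ENSMUSG00000036594, mm9 chromosome 17, 34400154 to 34424772), stood at 29.4, 48.3 and 34.2 FPKM. Its partner chain H2-Ab1 (ENSMUSG00000073421) stood at 29.4, 48.2 and 33.0 FPKM. The 2 genes encode the partner chains of 1 molecule, share a listed locus, and had nearly equal values in each group, with an H2-Aa to H2-Ab1 ratio of 1.00 in floxed, 1.00 in Cdh5Cre and 1.04 in Sm22Cre. H2-Eb1, the beta chain of the E molecule (ENSMUSG00000060586, chromosome 17, 34442828 to 34453144), was at 32.3, 57.2 and 34.4 FPKM. The pseudogene of its partner, H2-Ea-ps, is listed at 0 in all 3 groups. Cd74, the invariant chain that fills the class II groove until peptide is loaded (ENSMUSG00000024610, chromosome 18), was at 79.1, 135 and 86.8 FPKM, and had status FAIL, which in tables of this kind marks a numerical problem in the estimate. For these 4 genes Cdh5Cre held the highest value and floxed the lowest, with Sm22Cre near floxed.

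The class I genes were among the most abundant transcripts of the tissue. B2m (ENSMUSG00000060802, chromosome 2, 121945844 to 122011925) stood at 489, 676 and 543 FPKM, above 99.2% of the analysed genes in floxed. H2-D1 (ENSMUSG00000073411, chromosome 17, 35399675 to 35404444) was at 251, 341 and 284 FPKM. H2-K1 (ENSMUSG00000061232, chromosome 17, 34132962 to 34137278) was at 202, 304 and 233 FPKM. In each group the light chain was close to the sum of these 2 heavy chains, with ratios of 1.08 in floxed, 1.05 in Cdh5Cre and 1.05 in Sm22Cre. H2-K1 and H2-D1 are close paralogues, and their 200-base upstream stretches were 91.4% identical over the 140 bases that aligned, with 120 further bases opposite gaps. The stretch of H2-D1 lay within an annotated exon of that gene. No source used here says how the authors' counting treated fragments that match both genes, so their separate values are uncertain. Both had status FAIL in every pair.

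The peptide transporter and the immunoproteasome were much lower. Tap1 (ENSMUSG00000037321, chromosome 17, 34318932 to 34334170) stood at 7.63, 9.02 and 7.42 FPKM, with status FAIL. It was the only one of the 9 with a lower value in Sm22Cre than in floxed. Psmb8 (ENSMUSG00000024338, chromosome 17, 34334666 to 34353266), which replaces the chymotrypsin-like subunit Psmb5, stood at 10.9, 18.6 and 12.4 FPKM. Its listed locus also holds Tap2. The most abundant of the 9, B2m, exceeded the least, Tap1, by 64.1 times in floxed, 74.9 times in Cdh5Cre and 73.2 times in Sm22Cre. The summed FPKM of all genes was 495724, 607860 and 500015. Together the 9 genes took 0.228%, 0.269% and 0.254% of it. Without globin and mitochondrial genes these shares were 0.248%, 0.310% and 0.276%.

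**Figure D1:**
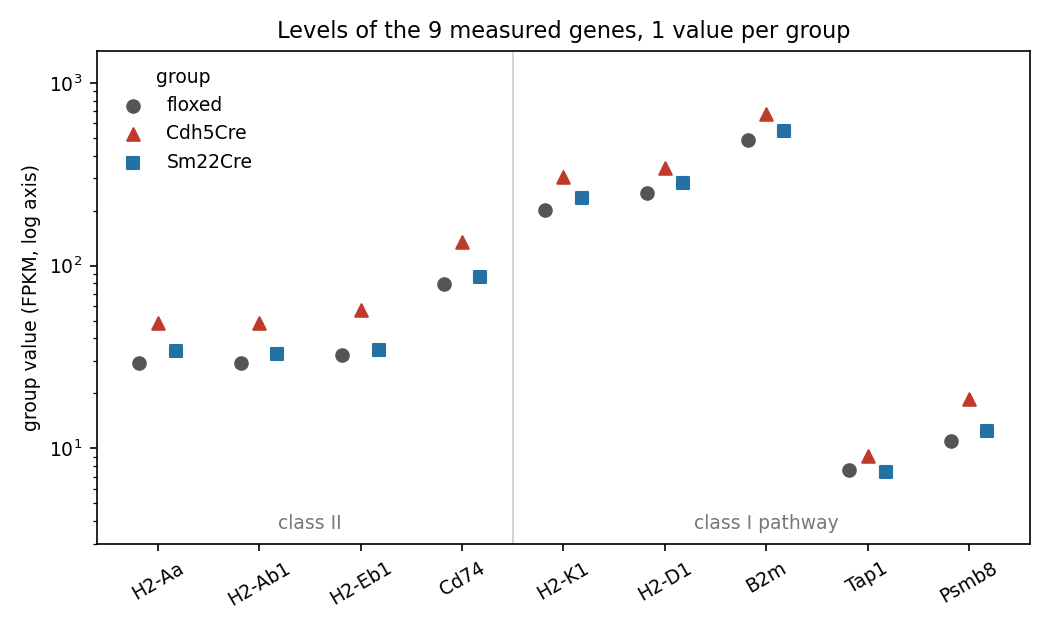
FPKM of the 9 measured genes on a log axis, 1 point per group (floxed circles, Cdh5Cre triangles, Sm22Cre squares), with no error bars because 1 value per group was deposited. For every gene the Cdh5Cre point is the highest of the 3, from 9.02 FPKM for Tap1 to 676 for B2m.

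Cdh5Cre against floxed gave higher values for 9 of 9 genes, where 51.7% of the 14225 analysed genes were higher. Because the genes were chosen with earlier results of these data known, member counts here and below are descriptions only. The median log2 ratio, on log2(FPKM + 1), was 0.70 over the 9 genes and 0.02 over all genes. None of the 9 reached 2-fold, which 1.19% of all genes did upwards and 0.703% downwards. H2-Eb1 had the highest ratio (1.77-fold, log2 ratio 0.81), followed by Cd74 (1.71-fold, 0.76), Psmb8 (1.71-fold, 0.72), H2-Ab1 (1.64-fold, 0.70) and H2-Aa (1.64-fold, 0.70). H2-K1 was 1.51-fold, B2m 1.38-fold, H2-D1 1.36-fold and Tap1 1.18-fold higher. The 4 class II genes had a median of 0.73 and the 5 class I pathway genes one of 0.47. All members but Tap1 lay above the 75th percentile of all genes, which was 0.30.

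Ratios in Cdh5Cre against floxed also varied with the size and composition of the transcripts. Across 12317 protein-coding genes, the rank correlation (Spearman's rho) was -0.58 for length and 0.53 for the GC share, as a description, since genes are not replicates. The members had a median length of 1619 bases and a median GC content of 55.9%, against 3120 bases and 50.4% over all these genes. With the trend removed, the median of the 9 members was 0.29 and that of all genes -0.01, and 9 of 9 members were still higher, against 49.2% of genes. H2-Eb1 then had a ratio of 0.57, Psmb8 and H2-Aa of 0.37 each, Cd74 of 0.35, B2m of 0.29, H2-Ab1 of 0.24, H2-K1 of 0.22, H2-D1 of 0.17 and Tap1 of 0.05. H2-Eb1 thus kept the first place and Tap1 the last, while the class II median was 0.36 and the class I pathway median 0.22.

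**Figure D2:**
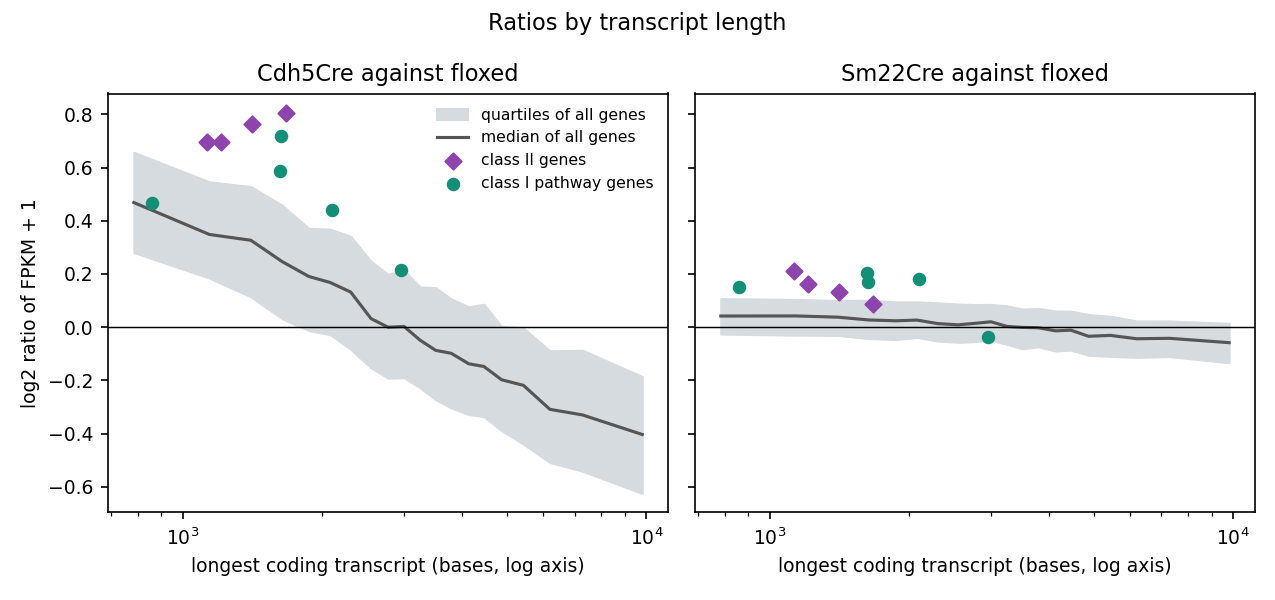
Log2 ratios against the length of the longest protein-coding transcript (log axis), with the median (line) and quartiles (band) of all protein-coding genes in 20 bins of length. In Cdh5Cre against floxed the band slopes down with length. The class II genes (diamonds) and also Psmb8, H2-K1 and H2-D1 lie above it. Tap1 lies at about its upper edge, and B2m, at 860 bases, lies within it.

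Sm22Cre against floxed gave smaller differences. In this comparison 8 of 9 genes were higher, where 52% of all genes were, and none reached 2-fold, which 0.302% of genes did upwards and 0.33% downwards. The median was 0.16 over the members and 0.01 over all genes. H2-Aa was 1.16-fold, H2-K1 1.15-fold, Psmb8 1.14-fold, H2-D1 1.13-fold, H2-Ab1 1.12-fold, B2m 1.11-fold, Cd74 1.10-fold and H2-Eb1 1.06-fold higher. Tap1 had a log2 ratio of -0.04. The order of the genes differed from that in Cdh5Cre, with H2-Eb1 at 0.09 last among those that were higher. With the length and GC trend removed the median was 0.13, and the same 8 genes were positive, against 49.3% of genes. Since the floxed group enters both comparisons, they are not independent of each other.

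**Figure D3:**
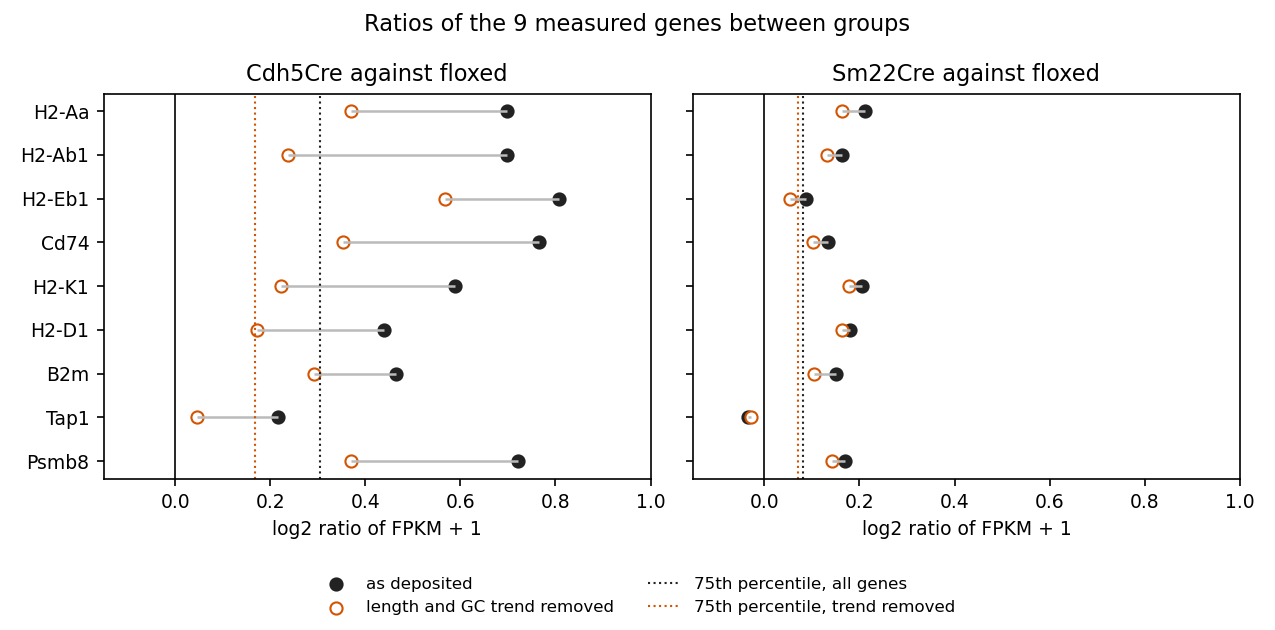
Log2 ratios of the 9 measured genes in the 2 comparisons with floxed, as deposited (filled) and with the length and GC trend removed (open), and the 75th percentile of all genes for each (dotted). Filled points reach 0.81 in Cdh5Cre and 0.21 in Sm22Cre.

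Sm22Cre set directly against Cdh5Cre gave lower values for 9 of 9 genes, where 50.7% of all genes were lower, with a median of -0.48 (-0.01 over all genes). H2-Eb1 had the lowest ratio, at -0.72, and Tap1 the one nearest 0, at -0.25. None reached 2-fold, which 1.23% of genes did downwards and 0.401% upwards. With the trend removed 9 of 9 were lower, against 48% of genes, the median was -0.21, and H2-K1 (-0.05) and H2-D1 (-0.02) were close to 0. With both groups scaled to the same sum without globin and mitochondrial genes the median was -0.29, and under quantile normalization H2-D1 (0.01) and B2m (0.08) turned positive.

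Not all other genes of the 2 pathways moved with the members. In 7 lists of accessory, regulatory, proteasome and interferon genes, 76 genes were analysed, and 0 of them reached 2-fold on log2(FPKM + 1) in any of the 3 comparisons. Passing 2-fold was also rare among all genes, at 1.19% upwards and 0.703% downwards in Cdh5Cre against floxed. In that comparison 51 of the 76 were higher, with a median of 0.15, where 51.7% of all genes were higher. Of the class II accessory and regulatory genes 14 were analysed, 7 higher and 7 lower, near the share of all genes, with a median of 0.05. Ciita, the master coactivator of class II transcription, stood at 0.54, 0.55 and 0.54 FPKM, below the analysis limit. The lysosomal protease gene Lgmn stood at 71.1, 65.4 and 75.2 FPKM, the thiol reductase gene Ifi30 at 27.3, 30.8 and 26.8, and Nfyc, a subunit of NF-Y, at 22.1, 28.1 and 23.997. H2-DMa and H2-DMb1, which encode the class II peptide exchanger and were picked out after their values were seen, were at 3.91, 5.62 and 4.90 and at 6.38, 8.62 and 7.10 FPKM.

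On the class I side, the peptide-loading list had 5 of 8 genes higher in Cdh5Cre (median 0.10), where 51.7% of all genes were higher. The chaperone gene Calr stood at 254, 440.0 and 277 FPKM and kept a ratio of 0.70 with the trend removed. Its partner Pdia3 was at 251, 260 and 274 FPKM, and the tapasin gene Tapbp at 130.1, 144 and 119. Tap2, the second transporter subunit, stood at 24.9, 22.5 and 22.3 FPKM, so it was lower in both Cre groups while Tap1 was higher in Cdh5Cre. The Tap1 to Tap2 ratio was 0.31, 0.40 and 0.33 in that order. Nlrc5, a coactivator of class I genes, was at 1.32, 1.61 and 1.63 FPKM. Among non-classical and class I-like genes 12 of 14 were higher in Cdh5Cre (median 0.38, and 0.18 with the trend removed). They included H2-T23, a ligand of natural killer cell receptors, at 32.0, 49.3 and 36.8 FPKM, and H2-Q4 at 23.4, 34.8 and 26.6. The neonatal Fc receptor gene Fcgrt, at 96.7, 123 and 96.6 FPKM, was the most abundant of this list. H2-T23 shares its listed locus with other MHC genes, and its fragments could have been divided among them.

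Psmb5 and Psmb7 were far above their inducible counterparts in all groups, while Psmb6 could not be compared with Psmb9. Psmb5 stood at 84.5, 101 and 90.0 FPKM, Psmb6 at 111, 150 and 116, and Psmb7 at 74.8, 77.3 and 82.1. The ratio of Psmb8 to Psmb5 was 0.13 in floxed, 0.18 in Cdh5Cre and 0.14 in Sm22Cre, where Psmb5 had status FAIL in every pair. Psmb10, the inducible counterpart of Psmb7, stood at 14.2, 23.01 and 14.5 FPKM, and its ratio to Psmb7 was 0.19, 0.30 and 0.18. Psmb4 and Psma3, which with Psmb6 had the highest floxed levels of the core list, were at 127, 166 and 134 and at 93.9, 102 and 101 FPKM. The constitutive core list had 12 of 14 genes higher in Cdh5Cre (median 0.14), but 6 of 14 with the trend removed (median -0.07). For all genes these shares were 51.7% and 49.2%. Psme1 and Psme2, the proteasome activator genes, were at 64.4, 90.8 and 65.6 and at 130.1, 148.3 and 124 FPKM. Psmb10 and Psme1 had ratios of 0.24 and 0.06 in Cdh5Cre with the trend removed, and Psme2 one of -0.23. Among these inducible genes, Psmb8 (0.37) had the highest value on that scale.

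Of the interferon-gamma signalling genes 5 of 10 were higher in Cdh5Cre (median 0.07). Among all genes 51.7% were higher, and 49.2% with the trend removed. Ifng itself is listed at 0 in floxed and Cdh5Cre and at 0.03 FPKM in Sm22Cre. The receptor genes Ifngr1 and Ifngr2 stood at 45.2, 50.5 and 45.5 and at 38.1, 35.0 and 36.9 FPKM, and the kinase gene Jak1 at 32.4, 23.2 and 31.4. Irf1, a transcription factor of this response, was picked out after its values were seen and stood at 17.3, 22.2 and 17.2 FPKM. As plain FPKM ratios, Socs1, an inhibitor of this signalling, and the chemokine gene Cxcl10 did pass 2-fold, and both were picked out for this. Socs1 stood at 3.82, 7.94 and 4.84 FPKM, 2.08-fold higher in Cdh5Cre than in floxed. Cxcl10, near the analysis limit at 0.88, 1.76 and 0.53 FPKM, was 2.005-fold higher in Cdh5Cre than in floxed and 3.34-fold lower in Sm22Cre than in Cdh5Cre. Of the interferon-inducible GTPases and CXCR3 ligands 7 of 12 were higher in Cdh5Cre (median 0.10), and 10 of 12 with the trend removed (0.24). The most abundant of them were Gbp2 at 13.2, 12.0 and 13.9 FPKM, Irgm1 at 9.67, 10.1 and 10.5, and Iigp1 at 7.27, 5.59 and 7.75.

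The members lie mostly together in the genome, so their neighbours were described too. Between H2-K1 and H2-D1 on chromosome 17 the table holds 117 other genes outside the antigen presentation and proteasome lists, of which 64 were analysed. In Cdh5Cre 55 of the 64 were higher, with a median of 0.38, and with the trend removed 32 of 51 protein-coding genes were higher, with a median of 0.08. In Sm22Cre 45 of the 64 were higher, with a median of 0.06. Among all genes 51.7% were higher in Cdh5Cre, 49.2% there with the trend removed, and 52% in Sm22Cre. At the locus listed for Tap1 the table has 2 further genes to which the tables used here give no symbol. RefSeq places Psmb9 beside Tap1, and whether either of these genes stands for Psmb9 was not settled here. Counts over the members therefore cover the 9 matched genes. ENSMUSG00000024337 stood at 2.21, 8.60 and 5.09 FPKM, and ENSMUSG00000092299 at 4.25, 0.82 and 2.09. In Cdh5Cre against floxed their log2 ratios were 1.58 and -1.53, past 2-fold in opposite directions, and their sum was 6.46, 9.42 and 7.18 FPKM. They were picked out after their values were seen, and estimates at this shared locus, Tap1 included, may have been divided among its genes.

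Markers of the cells that could carry these transcripts are given beside them. In whole tissue, more cells of a type and more RNA per cell cannot be told apart. The 12 macrophage markers, none listed at 0, summed to 370, 409 and 401 FPKM. In Cdh5Cre 6 of 12 were higher (median 0.07), and 1 of 12 with the trend removed (median -0.14). For all genes these shares were 51.7% and 49.2%. Lyz2 stood at 130.4, 147 and 147 FPKM, C1qa at 57.6, 74.1 and 60.6, and C1qc at 45.3, 51.6 and 47.9. The summed class II chains were 0.62 of the summed C1q chains in floxed, 0.83 in Cdh5Cre and 0.65 in Sm22Cre. Dendritic cell markers were low, with a sum over 10 genes of 13.7, 14.2 and 16.1 FPKM. The 7 B cell markers summed to 1.73, 4.37 and 2.99 FPKM, and the 10 T and NK cell markers to 2.55, 5.79 and 3.51. Only 2 of these 7 and 2 of these 10 reached 1 FPKM in any group, so both sums rest on values near or below the analysis limit. The 6 markers of all leukocytes summed to 68.6, 92.5 and 72.2 FPKM. Of the last, 5 of 6 were higher in Cdh5Cre (median 0.28), and 3 of 6 with the trend removed (median 0.02).

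Endothelial, blood, fibroblast and heart muscle markers mostly moved in the same direction as the members in Cdh5Cre. Among all genes 51.7% were higher there, 49.2% with the trend removed, and 1.19% were higher by 2-fold or more. All 10 endothelial markers were higher, 3 of them past 2-fold (median 0.45, and 0.43 with the trend removed), with sums of 355, 547 and 397 FPKM. The summed heavy chains H2-K1 and H2-D1 were 3.32 times the level of the endothelial adhesion gene Pecam1 in floxed, 3.96 times in Cdh5Cre and 3.42 times in Sm22Cre. Pecam1 itself had a log2 ratio of 0.25 in Cdh5Cre against floxed, below the median of the 10 endothelial markers, which ranged from 0.09 to 1.24. A ratio to another marker could therefore move the other way. The 7 erythroid markers summed to 4020.0, 25454 and 9029 FPKM, the 6 platelet markers to 45.1, 267 and 87.9, and the 6 neutrophil markers to 3.06, 41.4 and 11.7, with Ly6g listed at 0 in floxed. Fibroblast markers summed to 1748, 2697 and 1725 FPKM, with 5 of 6 higher in Cdh5Cre (median 0.63) and 6 of 6 with the trend removed (0.55). The 8 heart muscle markers summed to 929, 1437 and 414. In Cdh5Cre 8 of 8 were higher (median 0.57), and 7 of 8 with the trend removed (0.24). The part of these cell types in the members' differences was not tested.

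**Figure D4:**
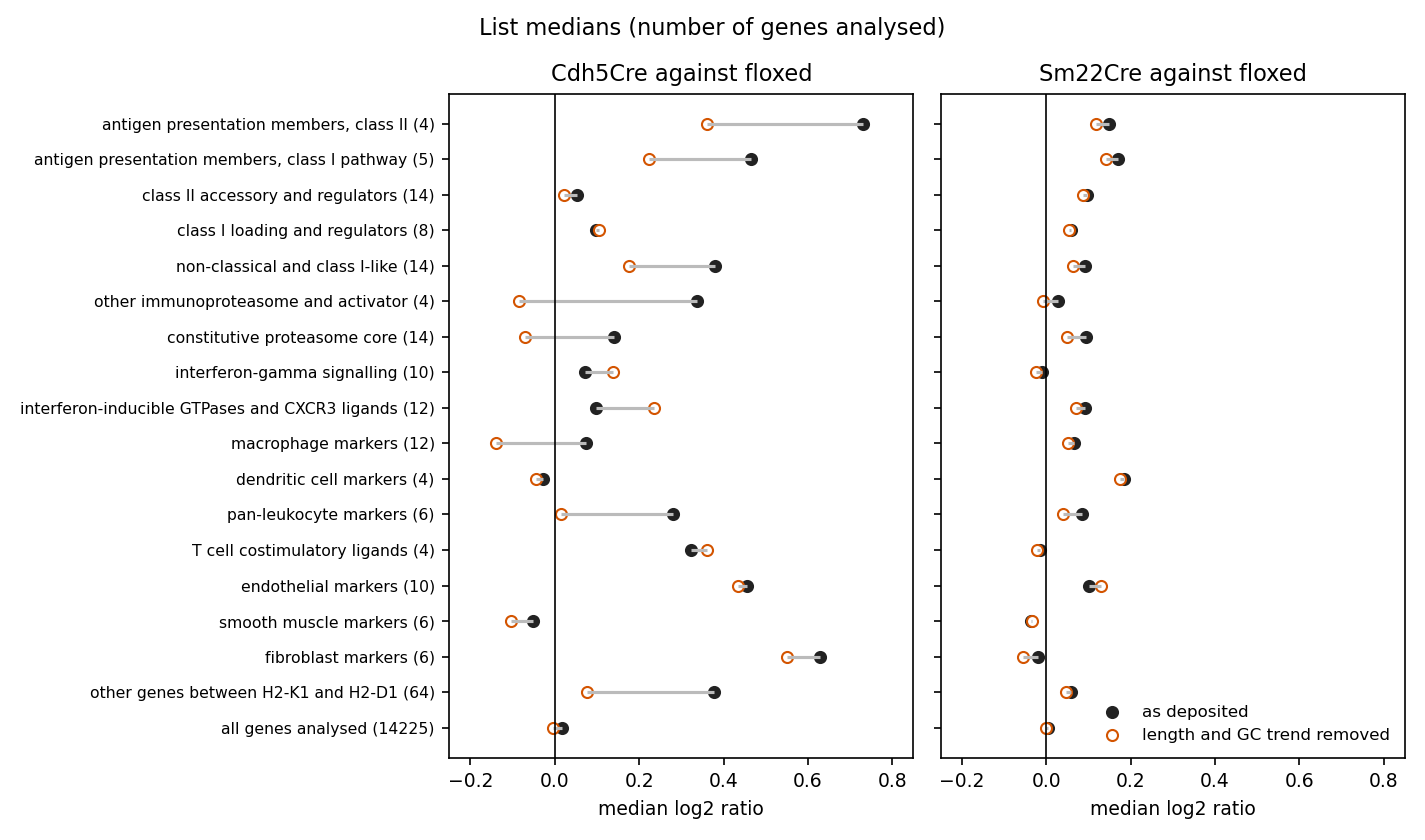
Median log2 ratios of the gene lists in the 2 comparisons with floxed, as deposited (filled) and with the length and GC trend removed (open), with the number of genes analysed in parentheses; erythroid, platelet, neutrophil, heart muscle, B cell and T and NK cell lists are not drawn. In Cdh5Cre the class II genes have the highest median drawn as deposited (0.73), and fibroblast (0.55) and endothelial (0.43) markers have the highest with the trend removed.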

How the data were processed

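RNA from frozen aorta was sequenced as stranded poly-A libraries, per the labels' protocols. The submitters' processing notes name Cufflinks 1.3.0, TopHat2 2.0.8 with Bowtie2 2.1.0, SAMtools 0.1.7 and the build mm9. The gene annotation, the roles of the tools and the use of strand are not given in the sources used here. The authors deposited 1 FPKM per gene and group for each of 3 pairs of groups, per the file headers. The depth is unknown, and no count, SD or p-value could be derived.

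Symbols came from GENCODE M21 identifiers (32638 of 37668 genes). Genes with 1 FPKM or more in a group were analysed, except 7 with status HIDATA. Genes with status FAIL were kept. Beside the members named with it, companion genes also had this status, among them Psmb5, Psme1, Psme2, Lgmn, Ifi30, Pecam1 and several erythroid markers. Every group occurs in 2 pairs, and its FPKM differed between them for 15 genes but for no member. Ratios are differences of log2(FPKM + 1), folds are plain FPKM ratios, and a difference was called at 2-fold on the log2 scale, in place of the planned limma test, which needs values per library. The trend was a loess (span 0.5, degree 2, R 4.3.3) on transcript length and GC content, tested on simulated data. Starts on mm9 are printed counted from 1. Other calculations used Python 3.11.15 with pandas 2.3.3. Promoters are RefSeq sequences on GRCm38.p6, and mm9 positions were not converted to that build.

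The members and the gene lists were chosen with earlier results of these data known. The text names all members, up to 3 genes of each companion list with the highest floxed level, and Psmb5, Psmb6, Psmb7, Tap2, Ciita, Nlrc5 and H2-Ea-ps. Other genes are marked as picked out later. Marker lists other than macrophages are given by sums. Of the listed symbols, Psmb9, H2-Ea, Gbp5 and Gbp6 were not matched.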

Additional observations from a re-analysis of the deposited data

How the results depend on the processing

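All values rest on 1 number per group, so replicates could not be left out in turn. No paired analysis was possible because the groups share no replicate numbers and the table gives no value per library. A changed pseudocount, a filter on level or status and the values of the other pair could not change a member's direction. Of the 10 alternatives, only quantile normalization, scaling by the median ratio, scaling to the same sum and removal of the trend could. In Cdh5Cre against floxed all members analysed were higher under all 10. Tap1 came closest to 0, at 0.03 with the same sum without globin and mitochondrial genes. None of the 10 scaled to the whole summed FPKM, which was 495724 in floxed and 607860 in Cdh5Cre. Such a scaling would lower every ratio in this comparison. Whether all members would stay higher under it was not tested. The median of 0.70 was 0.58 under quantile normalization and 0.29 with the length and GC trend removed. It was 0.49 with groups scaled to the same sum without globin and mitochondrial genes. That scaling to the same sum moved the median of all genes to -0.16 in this comparison and to 0.17 in Sm22Cre against Cdh5Cre, and 35.1% of genes, in place of 51.7%, were then higher in Cdh5Cre. With status OK only, 5 members were left, and 5 were higher in each comparison with floxed. In Sm22Cre against floxed every member other than Tap1 stayed positive under the alternatives that kept it. In Sm22Cre against Cdh5Cre the median of -0.48 was -0.29 with the same sum and -0.21 with the trend removed, and under quantile normalization 2 members were higher, H2-D1 (0.0145) and B2m (0.0842). The causes of these shifts were not tested. None of the 9 members reached 2-fold under any alternative.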

Other observations

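A T cell needs a second signal beside the presented peptide, and genes of 6 such ligands were listed, of which 4 were analysed. Icosl, a ligand that acts through the receptor ICOS, was the most abundant, at 10.6, 13.7 and 10.3 FPKM in floxed, Cdh5Cre and Sm22Cre. Cd274, which encodes the inhibitory ligand PD-L1, stood at 2.17, 1.82 and 2.05 FPKM, and Cd40 at 1.82, 2.70 and 1.83. In Cdh5Cre 3 of the 4 were higher, with a median log2 ratio of 0.32 and none past 2-fold, and in Sm22Cre 2 of the 4 were higher, with a median of -0.02. Among all genes 51.7% were higher in Cdh5Cre and 52% in Sm22Cre.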
